A study of Mus musculus with 6 samples.

Results

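Interferon-stimulated genes are the genes that cells switch on when they sense an interferon, and 43 of them were examined by name. Of these, 39 are in the table of 14051 genes, and all 39 were among the 11649 genes tested. Oasl2, Ifi47, Gbp3 and Gbp7 were not analysed here. Members were taken by gene name, as known targets of interferons. Within the set, Ifit, Oas and Mx genes form a type I class, with 6 of 7 members measured, and Gbp, Irgm and immunoproteasome genes form an interferon gamma class, with 10 of 12 measured.

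The values come from bulk RNA-Seq of CD8+ T cells of donor origin, taken from the BM circulation on day 5 after BMT, with 3 GC-treated and 3 vehicle-treated libraries. In both groups, lethally irradiated B6D2F1 mice were transplanted with CD3+ T cells purified from B6.CD45.1 mice, and an anti-CD45 antibody was injected before euthanasia so that cells inside blood vessels could be told from those in tissue. GC-treated recipients were given dexamethasone, a synthetic glucocorticoid, at 5 mg/kg/day from day -1 to day 5, and vehicle-treated recipients were given methyl β-cyclodextrin over the same days. Sorted cells were antibody-labelled donor CD45.1+ CD8+ T cells from BM pooled over a few mice per biological group. Whether every library stands for a separate pool is not stated, and the labels give no age. The p-values therefore measure the spread between these libraries, which may be technical.

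Type I interferons bind the receptor made of Ifnar1 and Ifnar2, and the signal reaches DNA through a complex with Stat2 and Irf9 that reads the interferon-stimulated response element (ISRE). Interferon gamma, which activated CD8+ T cells make themselves, binds Ifngr1 and Ifngr2, and its signal is read at the gamma-activated site (GAS). Many genes carry both elements and answer to both interferons, so the classes name the usual stronger inducer and are not exclusive.

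Both elements were searched for as letters, on both strands, in the 250 bases before the RefSeq start of each gene (promoter table of build GRCm38.p6), where 28 of the 39 members had a promoter. The ISRE was written GAAANNGAAA and the GAS TTCNNNGAA, and 1 pair of matches of the different motifs overlapped. The ISRE letters were in 12 of 28 members (42.9%), against 3.46% of all 27025 promoters and 3.3% of those of 9205 tested genes. GAS letters were in 9 of 28 members (32.1%), against 8.13% of all promoters and 7.32% of those of tested genes. By class, the ISRE was in 4 of 4 type I promoters and 4 of 7 interferon gamma promoters, and the GAS was in 1 of 4 and 3 of 7 of them. A match of letters is a description and not a measured binding site.

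The stretches below carry matches of the ISRE or GAS letters and read 5′ to 3′ on the strand of the gene. Every match within a stretch is in capitals (the ISRE reads TTTCNNTTTC when it is on the other strand). The classes were set by gene family and not by these letters. For the type I class these were Ifit1 (GRCm39 chr19:34618173-34618225, + strand) and Ifit3 (chr19:34560761-34560828, + strand), each with a pair of ISRE matches, Oas1a (chr5:121045589-121045615, - strand) with a pair that overlap, and Oas3 (chr5:120915778-120915811, - strand) with a single one. Oas1a also had a GAS match 98 to 90 bases before the start, outside the stretch shown.
Ifit1: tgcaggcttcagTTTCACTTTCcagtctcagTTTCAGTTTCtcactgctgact
Ifit3: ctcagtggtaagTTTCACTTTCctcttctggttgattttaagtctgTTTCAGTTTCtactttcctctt
Oas1a: ttctcggGAAATGGAAACTGAAAatct
Oas3: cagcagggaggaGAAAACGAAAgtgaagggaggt

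In the interferon gamma class, Igtp (chr11:58090333-58090361, + strand) and Irgm2 (chr11:58105716-58105760, + strand) had a GAS next to an ISRE, and 28 of the 29 bases of the Igtp stretch were the same in Irgm2. Irgm1 (chr11:48762255-48762284, - strand) and Gbp2 (chr3:142326355-142326384, + strand) had ISRE matches, and Psmb8 (chr17:34417062-34417090, + strand) had a GAS.
Igtp: ccatTTCTAGGAActGAAACTGAAAgctg
Irgm2: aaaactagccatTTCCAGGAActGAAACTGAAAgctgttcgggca
Irgm1: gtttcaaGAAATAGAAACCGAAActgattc
Gbp2: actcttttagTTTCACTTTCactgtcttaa
Psmb8: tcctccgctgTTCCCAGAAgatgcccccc

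Of the other members, Isg15 (chr4:156285320-156285365, - strand) had 3 overlapping ISRE matches, Stat2 (chr10:128106133-128106166, + strand) had an ISRE on the other strand, and Irf1 (chr11:53660741-53660769, + strand) had a GAS. The stretches of Oas1a, Igtp, Irgm1, Gbp2, Psmb8 and Irf1 overlap exons of the annotation used here, and for Irf1 the exon belongs to a non-coding gene on the opposite strand.
Isg15: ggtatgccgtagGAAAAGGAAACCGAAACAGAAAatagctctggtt
Stat2: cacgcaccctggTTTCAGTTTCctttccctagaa
Irf1: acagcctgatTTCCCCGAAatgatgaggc

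The libraries did not separate by label. Total reads on genes of the table ran from 67887570 to 76888118 in the GC-treated group and from 60949593 to 64801008 in the vehicle-treated group. No pair of libraries was alike within counting noise, but GC-treated 1 was nearer to vehicle-treated 1 (chi-square per degree of freedom 21.3) than to GC-treated 2 (104) or GC-treated 3 (149). Most glucocorticoid target genes were not higher in GC-treated cells. Only 2 of 10 had a positive log2 fold change, and Fkbp5, a co-chaperone of the glucocorticoid receptor and one of its standard targets, had 21148, 16401 and 14780 in GC-treated 1, 2 and 3, against 24889, 32705 and 21271 in vehicle-treated 1, 2 and 3 (normalized counts, reads divided by a size factor per library). All GC-treated values of Fkbp5 were below all vehicle-treated ones, by a narrow margin for GC-treated 1 (-0.59 ± 0.17, limma adjusted p = 0.62). Tsc22d3 (-0.23) and Per1 (-0.26), 2 other targets, also had negative log2 fold changes. Dusp1, a phosphatase gene on the same list, was higher in GC-treated cells on average, with 9343, 8495 and 6076 in GC-treated 1, 2 and 3, against 6151, 5872 and 5048 in vehicle-treated 1, 2 and 3 (0.47 ± 0.16, limma adjusted p = 0.62). The labels were kept as given. Counts of members at an unadjusted limma p under 0.05 are given with and without GC-treated 1 or vehicle-treated 3.

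No interferon-stimulated gene passed the test between GC-treated and vehicle-treated cells, although 33 of the 39 had a positive log2 fold change and 6 a negative one. Over all tested genes 48.5% were positive. None of the 39 was called by limma at an adjusted p of 0.05, nor was any of the 11649 genes (0.0% called), and the smallest adjusted p of a member was 0.62. At an unadjusted limma p under 0.05, 2 members were higher in GC-treated cells, Psmb8 and Ifi35, where 2.12% of all tested genes were, and 1 was lower, Trim25, where 5.07% were. Of the count tools, edgeR named the same 3 genes (backgrounds 2.28% higher and 3.79% lower). DESeq2 called 0 members and 2 of 14034 genes (0.0143%), and at an unadjusted p under 0.05 it had 7 members higher (background 2.41%), adding Oas2, Gbp2, Gbp4, Psmb10 and Usp18, and 1 lower, Trim25 (4.63%).

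Values varied widely between libraries of the same label. The median log2 fold change (GC-treated over vehicle-treated) was 0.26 over the 39 members, against -0.01 over all tested genes. The highest library was 1.83 times the lowest in the median member and 1.41 times in the median tested gene, and the median within-group SD was 0.32 log2 units for members and 0.18 for all tested genes. GC-treated 2 was the highest library for 28 of 39 members, against 17.5% of all tested genes, and vehicle-treated 2 was the lowest for 33, against 18.1%. GC-treated 1 was below vehicle-treated 3 in 35 of 39 members, an order that 49.7% of tested genes shared. No member had GC-treated values that were all above the vehicle-treated ones (6.4% of tested genes did), and 1, Trim25, had them all below (6.4%). The first of these counts rests in part on GC-treated 1. In some members, among them Psmb8 and Oas1a, GC-treated 2 and 3 were above every vehicle-treated library. In others, among them Gbp4 and Ifit1, they were not. Neither the members nor all tested genes were counted in this way without GC-treated 1.

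**Figure D1:**
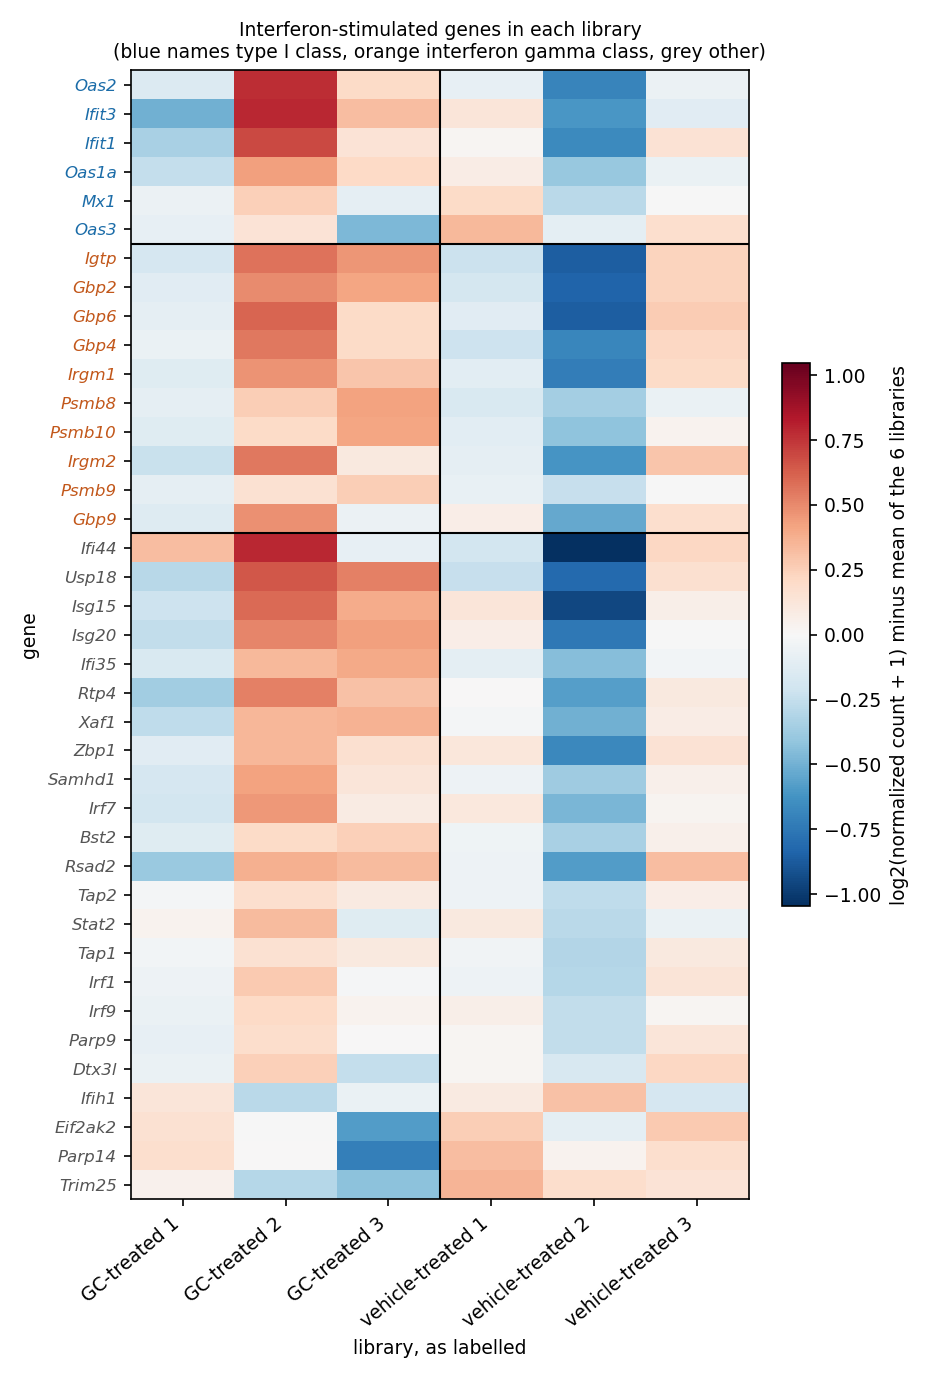
Each row is a measured member and each column a library as labelled, and colour is log2(normalized count + 1) minus the mean of that gene over the 6 libraries (red above, blue below). GC-treated 2 is the reddest column and vehicle-treated 2 the bluest, the highest library for 28 and the lowest for 33 of the 39 genes.

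Averaged over the members, GC-treated 1, 2 and 3 lay at -0.12, 0.36 and 0.11 log2 units from the 6-library mean, and vehicle-treated 1, 2 and 3 at 0.01, -0.46 and 0.10. The outer positions were held by GC-treated 2 and vehicle-treated 2, and the remaining libraries of the groups overlapped. Summed, the members took 426362, 583247 and 518556 normalized counts in GC-treated 1, 2 and 3, against 441677, 336053 and 495582 in vehicle-treated 1, 2 and 3. In bulk cells, fewer cells carrying a response and less RNA per cell cannot be told apart. The share of reads from mitochondrial genes ran in the opposite order at those ends, with 0.902%, 0.400% and 0.615% in GC-treated 1, 2 and 3, against 0.910%, 1.13% and 0.757% in vehicle-treated 1, 2 and 3, and its part in the result was not tested.

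In the interferon gamma class all 10 measured members had positive log2 fold changes, from 0.19 to 0.57, with a median of 0.41, which was 0.19 without vehicle-treated 2. The immunoproteasome genes encode the catalytic subunits that replace the standard ones and change how proteins are cut into peptides for MHC class I. Psmb8 (chr17:34416690-34420428) had 28729, 36558 and 41109 normalized counts in GC-treated 1, 2 and 3, against 27472, 23933 and 29180 in vehicle-treated 1, 2 and 3. GC-treated 2 and 3 were above every vehicle-treated library, and GC-treated 1 lay between vehicle-treated 1 and 3. Its means were 35466 ± 6262 in GC-treated and 26862 ± 2676 in vehicle-treated cells (SD, n = 3 each), a log2 fold change of 0.39 ± 0.13 (SE, limma adjusted p = 0.62). Psmb9, encoded beside Tap1, had 25024, 29764 and 31817 in GC-treated 1, 2 and 3, against 25316, 22511 and 26634 in vehicle-treated 1, 2 and 3 (log2 fold change 0.21 ± 0.11). Its exons share 743 bases with those of Tap1 on the opposite strand, so reads there may belong to either. Psmb10 had 17709, 22121 and 25712 in GC-treated 1, 2 and 3, against 17878, 14446 and 19781 in vehicle-treated 1, 2 and 3 (0.33 ± 0.15). For all 3 subunits GC-treated 3 was highest, and GC-treated 1 was below vehicle-treated 3. Their canonical transcripts are short (1702, 1353 and 1312 bases for Psmb8, Psmb9 and Psmb10), and GC-treated 3 was raised over short genes in general. After each library was centred on its curve over transcript length, their log2 fold changes were 0.31, 0.11 and 0.22.

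The guanylate-binding proteins (Gbp) are large GTPases that gather on the membranes around intracellular bacteria and parasites. Gbp4 was the most abundant of them, with 49328, 76013 and 59658 normalized counts in GC-treated 1, 2 and 3, against 44683, 32385 and 60142 in vehicle-treated 1, 2 and 3 (log2 fold change 0.45 ± 0.22). Gbp2 had 9898, 15177 and 14326 in GC-treated 1, 2 and 3, against 9482, 6007 and 12604 in vehicle-treated 1, 2 and 3 (0.53 ± 0.25). In Gbp2, GC-treated 2 and 3 were above every vehicle-treated library, whereas in Gbp4 GC-treated 3 was no higher than vehicle-treated 3. Gbp6 had 11414, 18586 and 13983 in GC-treated 1, 2 and 3, against 11229, 6692 and 14673 in vehicle-treated 1, 2 and 3 (0.48 ± 0.27). Gbp9 had 10216, 15670 and 10773 in GC-treated 1, 2 and 3, against 11801, 7739 and 12671 in vehicle-treated 1, 2 and 3 (0.19 ± 0.21). Gbp9 had the smallest difference of the class, with 2 of 3 GC-treated libraries below 2 of 3 vehicle-treated ones. The Gbp genes on chromosome 5 are near-copies of each other, Gbp4 and Gbp9 share 107 exon bases and Gbp6 shares 1726 with Gm43302, so the split of reads among them is uncertain.

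The immunity-related GTPases (Irgm1, Irgm2 and Igtp, also called Irgm3) regulate the disruption of vacuoles that hold pathogens. Igtp had the largest log2 fold change of the class (0.57 ± 0.27), with 28263, 47169 and 43945 normalized counts in GC-treated 1, 2 and 3, against 27327, 17573 and 37523 in vehicle-treated 1, 2 and 3. Irgm1 had 15955, 24079 and 21304 in GC-treated 1, 2 and 3, against 16068, 10503 and 19929 in vehicle-treated 1, 2 and 3 (0.43 ± 0.23). In both genes GC-treated 2 and 3 were above every vehicle-treated library, and GC-treated 1 was close to vehicle-treated 1. Irgm2, whose exons share 162 bases with Igtp on the same strand, had 5175, 8917 and 6526 in GC-treated 1, 2 and 3, against 5696, 3978 and 7463 in vehicle-treated 1, 2 and 3 (0.28 ± 0.24). Here only GC-treated 2 was above vehicle-treated 3, although 28 of the 29 promoter bases compared above are the same in Igtp and Irgm2. Vehicle-treated 2 was the lowest library in all 10 genes of the class.

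The type I class had 5 positive and 1 negative log2 fold changes among its 6 measured members, with a median of 0.29. That median was 0.51 without GC-treated 1, 0.09 without GC-treated 2 and 0.10 without vehicle-treated 2. Ifit proteins bind viral RNA and block its translation. Ifit1 (chr19:34618271-34632174) had 2413, 4908 and 3365 normalized counts in GC-treated 1, 2 and 3, against 3100, 1916 and 3388 in vehicle-treated 1, 2 and 3 (log2 fold change 0.33 ± 0.28). Ifit3 (chr19:34560899-34566443) had 1528, 3731 and 2696 in GC-treated 1, 2 and 3, against 2353, 1414 and 1989 in vehicle-treated 1, 2 and 3 (0.41 ± 0.30). For both, the span within each group was wider than the distance between the group means, with GC-treated 2 alone at the top for Ifit1 and GC-treated 2 and 3 for Ifit3. Mx1, a dynamin-like GTPase that blocks influenza virus and is defective in most inbred laboratory mice, had 2226, 2756 and 2176 in GC-treated 1, 2 and 3, against 2671, 1907 and 2312 in vehicle-treated 1, 2 and 3 (0.06 ± 0.15). Its groups overlapped throughout.

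The Oas genes lie together on chromosome 5 and encode enzymes that sense double-stranded RNA and make short adenylate chains, which activate the ribonuclease RNase L. Oas2 had 602, 1132 and 765 normalized counts in GC-treated 1, 2 and 3, against 627, 412 and 636 in vehicle-treated 1, 2 and 3 (log2 fold change 0.55 ± 0.26). Oas1a had 2297, 3676 and 3145 in GC-treated 1, 2 and 3, against 2887, 2076 and 2597 in vehicle-treated 1, 2 and 3 (0.26 ± 0.19). In both, GC-treated 2 and 3 were above every vehicle-treated library and GC-treated 1 was below 2 of them. Oas3 had the opposite sign, with 8453, 9896 and 6474 in GC-treated 1, 2 and 3, against 11301, 8331 and 10130 in vehicle-treated 1, 2 and 3 (-0.27 ± 0.16, limma adjusted p = 0.63). GC-treated 3 was its lowest library and vehicle-treated 1 its highest, and it is the only member of either class whose highest library was vehicle-treated. Oas1a has several close copies in the same cluster, so its reads may be shared with them.

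**Figure D2:**
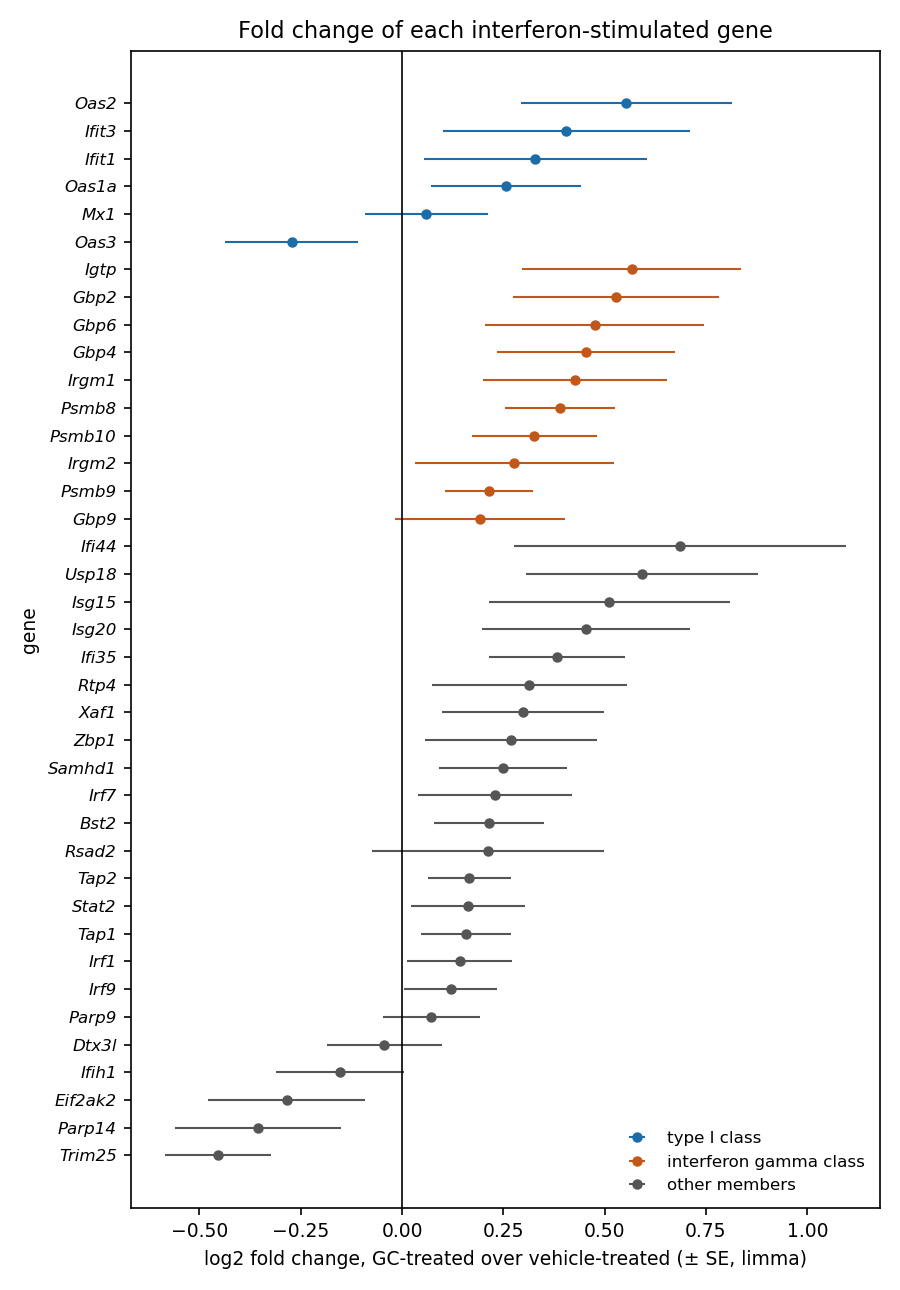
Points are the log2 fold changes of the 39 members, GC-treated over vehicle-treated, and bars are ± 1 SE from limma, ordered within the type I class, the interferon gamma class and the other members. All 10 interferon gamma genes lie right of 0, from 0.19 to 0.57, and Oas3 (-0.27) is the type I gene left of it, with none past an adjusted p of 0.05.

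Set against each other, the classes did not part by label. The mean log2 fold change of the type I class minus that of the interferon gamma class was -0.16, and it was -0.28 without vehicle-treated 3, -0.09 without vehicle-treated 1 and -0.09 without GC-treated 3. Library by library, the type I mean minus the interferon gamma mean was -0.10, 0.08 and -0.22 log2 units in GC-treated 1, 2 and 3, against 0.24, 0.16 and -0.15 in vehicle-treated 1, 2 and 3. GC-treated 1 and 3, like vehicle-treated 3, were tilted away from the type I class, and GC-treated 2, like vehicle-treated 1 and 2, toward it, so the groups overlapped. The type I class lay at -0.23, 0.51 and 0.05 in GC-treated 1, 2 and 3, against 0.11, -0.46 and 0.01 in vehicle-treated 1, 2 and 3, and the interferon gamma class at -0.13, 0.43 and 0.27 in GC-treated 1, 2 and 3, against -0.12, -0.61 and 0.16 in vehicle-treated 1, 2 and 3. Both classes were highest in GC-treated 2 and lowest in vehicle-treated 2. With further members assigned to each class (15 type I and 13 interferon gamma genes), the medians were 0.31 and 0.33 and the difference of means was -0.07.

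**Figure D3:**
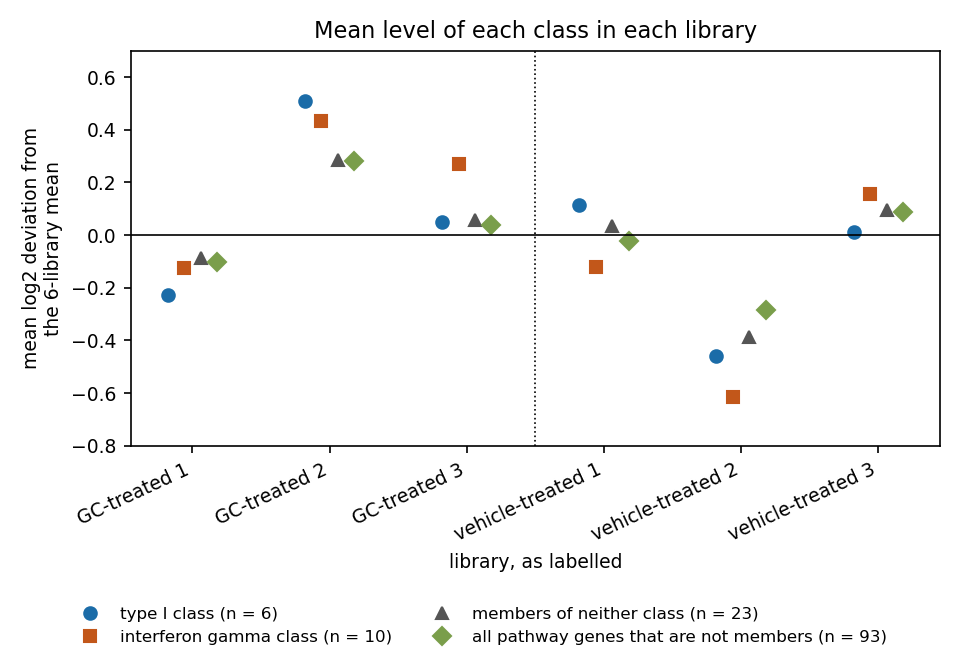
The vertical axis is the mean log2 deviation from the 6-library mean over the genes of a class, and the horizontal axis the libraries as labelled, with GC-treated left of the dotted line. All 4 gene groups are highest in GC-treated 2 and lowest in vehicle-treated 2, and GC-treated 1 lies below vehicle-treated 3 in each.

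The 4 transcription factors had small positive differences, and all of their groups overlapped. Stat2 and Irf9, which act in the type I complex, differed by 0.16 ± 0.14 and 0.12 ± 0.11 log2 units. Stat2 had 5210, 6379 and 4633 normalized counts in GC-treated 1, 2 and 3, against 5440, 4177 and 4835 in vehicle-treated 1, 2 and 3. Irf9 had 7670, 9311 and 8252 in GC-treated 1, 2 and 3, against 8377, 6710 and 8160 in vehicle-treated 1, 2 and 3. For each, GC-treated 2 was highest, vehicle-treated 2 lowest and the other 4 libraries intermixed. Irf1, an early target of interferon gamma that drives immunoproteasome and MHC class I genes, had 18930, 23806 and 19494 in GC-treated 1, 2 and 3, against 18935, 15988 and 21596 in vehicle-treated 1, 2 and 3 (0.14 ± 0.13). Irf7, which drives type I interferon genes, had 7535, 11735 and 9089 in GC-treated 1, 2 and 3, against 9272, 6155 and 8744 in vehicle-treated 1, 2 and 3 (0.23 ± 0.19). The same libraries were at the ends for both.

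Isg15 is a ubiquitin-like protein, Usp18 removes it from its substrates and damps signalling from the type I receptor, and Trim25 is a ubiquitin ligase that acts on the RNA sensor RIG-I. Trim25 (chr11:88890202-88911122) had 6010, 4725 and 4312 normalized counts in GC-treated 1, 2 and 3, against 7414, 6617 and 6406 in vehicle-treated 1, 2 and 3. All GC-treated values were below all vehicle-treated ones, by a narrow margin for GC-treated 1. The means were 5016 ± 886 in GC-treated and 6812 ± 532 in vehicle-treated cells (SD, n = 3 each), a log2 fold change of -0.45 ± 0.13 with a limma adjusted p of 0.62. Usp18 had a log2 fold change of 0.59 ± 0.29 and Isg15 one of 0.51 ± 0.30, with highest-to-lowest ratios between libraries of 2.76 and 2.92. Isg15 was highest in GC-treated 2 (3837) and lowest in vehicle-treated 2 (1315), and a non-coding gene on the other strand overlaps 31.1% of its exon bases.

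**Figure D4:**
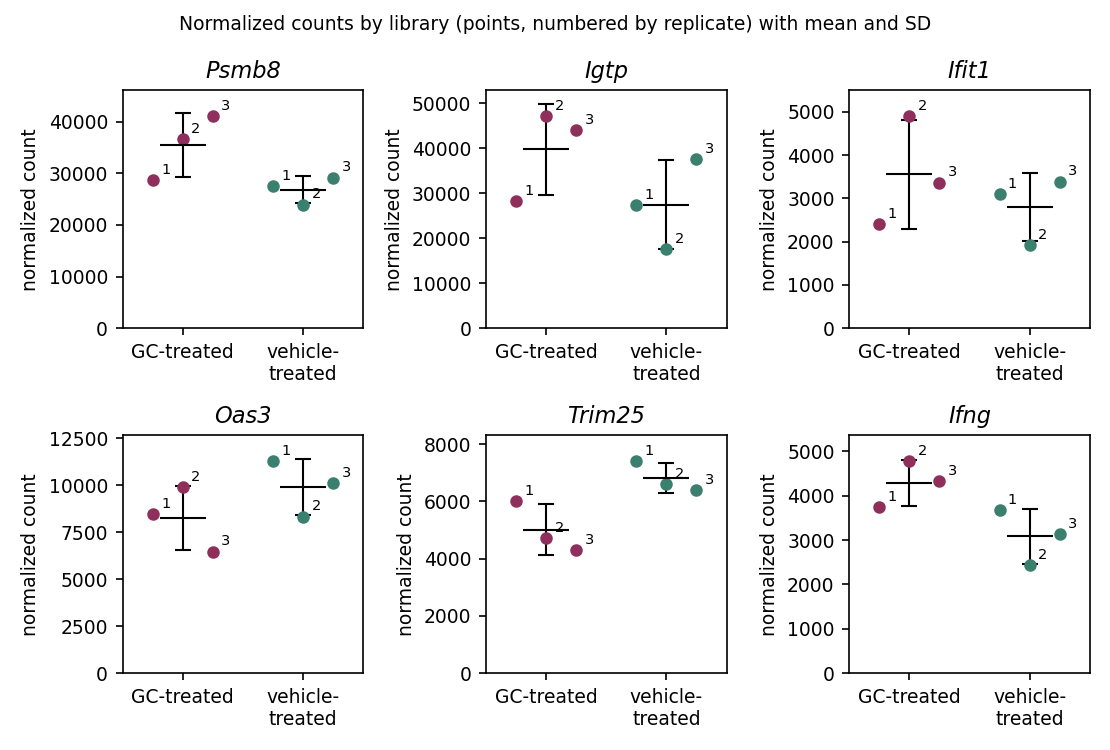
Each panel gives the normalized counts of a gene by library (points, numbered by replicate), with the mean (long bar) and SD (n = 3). Trim25 is the member whose groups do not overlap, Psmb8, Igtp, Ifit1 and Oas3 are members whose groups do, and Ifng is the interferon gamma gene itself.

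Sensors and nucleases split by sign. The log2 fold change was positive for Zbp1, a sensor of Z-form nucleic acid (0.27 ± 0.21), for Isg20, an exonuclease that degrades RNA (0.45 ± 0.26), and for Samhd1, which depletes free deoxynucleotides (0.25 ± 0.16). It was negative for Ifih1, which encodes the double-stranded RNA sensor MDA5 (-0.15 ± 0.16), and for Eif2ak2, which encodes the kinase PKR that stops translation (-0.28 ± 0.19). Ifih1 was the only member that was lowest in GC-treated 2 (1439) and highest in vehicle-treated 2 (2169). Parp9, Parp14 and Dtx3l, ADP-ribosyltransferases and a ubiquitin ligase that pairs with Parp9, had log2 fold changes of 0.07 ± 0.12, -0.35 ± 0.20 and -0.04 ± 0.14. For Parp14, GC-treated 3 (3789) stood well under the other 5 libraries, which spanned 6239 to 7765. Parp9 and Dtx3l are neighbours on opposite strands and share 458 exon bases.

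Tap1 and Tap2, which carry peptides into the endoplasmic reticulum for MHC class I, had log2 fold changes of 0.16 ± 0.11 and 0.17 ± 0.10. All of the remaining antiviral members were positive. Ifi35, a partner of the interferon-induced protein Nmi, had 4121, 5843 and 6047 normalized counts in GC-treated 1, 2 and 3, against 4298, 3376 and 4521 in vehicle-treated 1, 2 and 3 (0.38 ± 0.17, limma adjusted p = 0.62). Its GC-treated 1 value was below vehicle-treated 1 and 3, so the groups overlapped, and it shares 620 exon bases with Vat1 on the other strand. Rsad2 (viperin, which makes a chain-terminating nucleotide) differed by 0.21 ± 0.29, Bst2 (tetherin, which holds budding virus at the cell surface) by 0.22 ± 0.14, Xaf1 (a pro-apoptotic factor) by 0.30 ± 0.20 and Rtp4 by 0.31 ± 0.24. Ifi44 had the largest log2 fold change of any member, 0.69 ± 0.41, on the fewest reads, with 116, 161 and 87.3 in GC-treated 1, 2 and 3, against 80.7, 44.3 and 107 in vehicle-treated 1, 2 and 3. Its GC-treated 3 value was below vehicle-treated 3, and the highest library was 3.63 times the lowest.

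Per kilobase of the canonical transcript, the most abundant members were Psmb9 (19841 normalized counts per kb, mean of the 6 libraries), Psmb8 (18310), Tap1 (15017), Psmb10 (14945), Igtp (14719) and Gbp4 (11834). The ranges over the libraries overlapped between all neighbours in this order, and Igtp had the widest (7691 to 20643 per kb). The top 6 are all peptide-processing, Gbp or Irgm genes. The least abundant were Ifit1 (429 per kb), Ifih1 (297), Oas2 (179), Rsad2 (115) and Ifi44 (33.8).

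Fold change went with transcript length, over all genes and within the set. Spearman's rho between log2 fold change and canonical transcript length was -0.364 across 11404 tested genes and -0.465 across the 39 members, which share libraries and are not independent, so both are descriptions. Tested genes were split by length into 3 groups of equal size. Among the shortest (up to 2548 bases) all 17 members were positive, with a median of 0.38, against 0.09 for all genes there. In the middle group 11 of 12 members were positive, with a median of 0.19, against -0.01. The longest group, 4390 bases and over, held 5 positive of 10 members, with a median of 0.06, against -0.13. It also held Trim25, Parp14, Ifih1, Oas3 and Dtx3l, which are 5 of the 6 members with a negative sign. Of all tested genes, 67.8%, 48.8% and 28.2% were positive in the shortest, middle and longest groups, so most long genes were negative. GC-treated 3 carried the trend, at median deviations of 0.16, -0.01 and -0.21 over the short, middle and long genes of the table. After each library was centred on its own curve over length, 34 of 39 members were positive, the median was 0.22, and Oas2, Gbp4 and Psmb8 were higher (2.98% of genes tested) and Trim25 lower (4.1%) at an unadjusted limma p under 0.05, with 0 called.

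**Figure D5:**
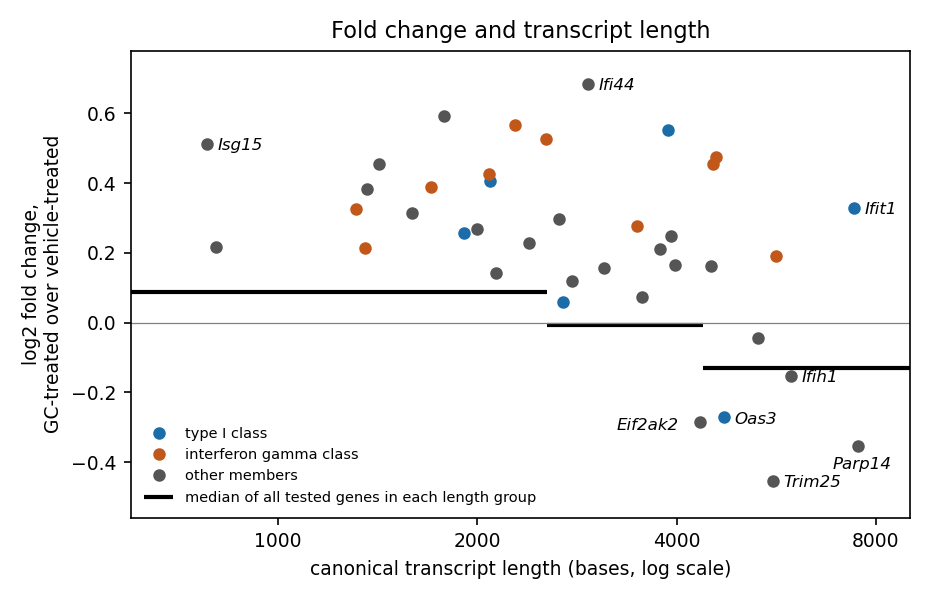
Each point is a member, placed by canonical transcript length in bases (log scale) and by log2 fold change, GC-treated over vehicle-treated, and black lines are the medians of all tested genes in each of 3 length groups of equal size. All 17 members of the shortest group lie above 0, and 5 of the 10 in the longest group lie below it. Of all tested genes, 67.8% in the shortest group and 28.2% in the longest were positive.

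Leaving out single libraries moved the counts. Without GC-treated 1, limma called 45 of the 11649 genes (0.386%) and 0 members, the members' median was 0.45, and 18 members were higher and 2 lower (Trim25 and Parp14) at an unadjusted p under 0.05, against 8.34% and 12.2% of all genes. The 18 included Gbp2, Gbp4, Igtp, Irgm1, Psmb8, Psmb9 and Psmb10 of the interferon gamma class and Ifit3, Oas1a and Oas2 of the type I class, and the smallest limma adjusted p of a member was 0.06, for Trim25. Without vehicle-treated 3 the median was 0.41, with 9 members higher (background 2.31%) and 1 lower (4.24%). Without vehicle-treated 2 it was 0.10, with 0 members higher (0.678%) and Trim25 lower (1.67%), and without GC-treated 2 it was 0.12, with 0 higher (1.82%) and Oas3 and Trim25 lower (3.32%). No member was called in any of these fits.

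Cell type markers also differed between libraries. Neutrophil genes (10 of the list were measured, with Ltf the most abundant) summed to 1833, 12641 and 8880 normalized counts in GC-treated 1, 2 and 3, against 780, 456 and 4229 in vehicle-treated 1, 2 and 3, and 9 of the 10 had positive log2 fold changes. They were most abundant in GC-treated 2 and 3 and least in vehicle-treated 2, where Mmp8 and Retnlg were at 0 (both also at 0, with Ltf, in vehicle-treated 1). Together they took 0.000692% to 0.0188% of all normalized counts. The 8 T cell identity genes, led by Ptprc, summed to 446213 to 531323 in GC-treated and 428050 to 490363 in vehicle-treated libraries, with mean deviations of -0.10, 0.14 and 0.12 log2 units in GC-treated 1, 2 and 3, against 0.00, -0.15 and -0.01 in vehicle-treated 1, 2 and 3. CD4 T cell genes were negative in 7 of 7 (sums of 5501 to 6401 in GC-treated and 6302 to 7657 in vehicle-treated libraries). Ctla4 led these sums, at 3268 to 4524 over the libraries. Cd4 itself had 106, 86.3 and 164 in GC-treated 1, 2 and 3, against 97.1, 138 and 178 in vehicle-treated 1, 2 and 3. Its groups overlapped (-0.23 ± 0.35). Whether the neutrophil and CD4 T cell genes came from such cells was not tested, nor was their part in the result.

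Upstream of the members, the receptor chains Ifngr1 and Ifnar1 differed by -0.01 ± 0.08 and -0.02 ± 0.12 log2 units. Ifngr2, a low-count gene, had 27.7, 35.7 and 74.4 normalized counts in GC-treated 1, 2 and 3, against 14.2, 16.2 and 29.2 in vehicle-treated 1, 2 and 3 (1.11 ± 0.59, limma adjusted p = 0.62), and its groups overlapped. Ifng, the interferon gamma gene, had 3739, 4782 and 4322 normalized counts in GC-treated 1, 2 and 3, against 3668, 2438 and 3137 in vehicle-treated 1, 2 and 3 (0.49 ± 0.16, limma adjusted p = 0.62). All GC-treated values of Ifng were above all vehicle-treated ones, though GC-treated 1 and vehicle-treated 1 were close.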

How the data were processed

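Libraries were made with SMART v4 and Nextera XT kits, which keep no strand. The authors aligned reads with STAR to GRCm39 (Gencode annotation), counted them by summarizeOverlaps with its defaults and ran DESeq2, and the submitters' processing notes also name bcl2fastq; the tool versions are not stated in those sources. With unstranded reads, genes that overlap on opposite strands cannot be told apart. The deposited table holds a normalized signal, reads per gene over 1 size factor per library. In every library 100% of values came out as whole reads within 0.001 after multiplying by the size factor. Members and gene lists were chosen with earlier results of these data known.

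Genes reaching 10 normalized counts in 3 or more libraries entered limma 3.58.1 (with trend) on log2(value + 1), so fold changes of low genes are understated, with Benjamini-Hochberg adjustment over 11649 genes and a threshold of 0.05. On the recovered reads edgeR 4.0.16 (quasi-likelihood, TMM) called 0 genes and DESeq2 1.42.0 called 2. R 4.3.3 and Python 3.11.15 were used, and the fits were tested on simulated data. An exact permutation test of 3 against 3 libraries cannot give a p under 0.1, so none was used. Per-library values are given for members of the classes and the transcription factors. They are also given for members with an unadjusted limma p under 0.05 or groups that do not overlap. Ifi44, Ifngr2, Dusp1, Cd163 and Cd4 were added after their values were seen. Of each pathway list, genes with an unadjusted p under 0.05 were named, with Ifngr1, Ifnar1 and the targets Tsc22d3, Fkbp5 and Per1 by name, and of each cell type list the most abundant gene. Positions and transcript lengths are from Gencode on GRCm39, matched by symbol. Alternatives were the tool, trend, scaling, filter, pseudocount, threshold, replicate block and leaving out each library. Centring on transcript length or on level was added after seeing the data. Libraries were grouped by their labels alone.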

Additional observations from a re-analysis of the deposited data

How the results depend on the processing

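Of 39 members, 33 kept the sign of their log2 fold change under all 17 other settings, and 0 members were called under any of them. The trend, filter and replicate block settings leave the fold change as it is, so they cannot change a sign. Over all tested genes, 2 were called by DESeq2, 1 by limma without a trend, and 0 to 45 when a library was left out, the 45 without GC-treated 1. Over the fits that leave out 1 library, the log2 fold change ran from -0.067 to 0.176 for Mx1, from -0.028 to 0.328 for Gbp9, from -0.00034 to 0.412 for Zbp1, from -0.039 to 0.154 for Parp9, from -0.179 to 0.070 for Dtx3l and from -0.028 to 0.458 for Rsad2. The negative ends of Mx1, Gbp9, Zbp1, Parp9 and Rsad2 were without vehicle-treated 2, and those of Mx1, Gbp9 and Parp9 were also negative without GC-treated 2. Dtx3l was positive without GC-treated 3, without vehicle-treated 3 and after the length correction (0.042). The cause was not tested. The members' median ran from 0.10 to 0.45 over the same fits. At an adjusted p under 0.10, 3 members passed without GC-treated 1 (Trim25, Psmb8 and Ifi35). The share of all tested genes passing there was not counted, so this number cannot be judged. In that fit 8.34% of all tested genes were higher and 12.2% lower at an unadjusted limma p under 0.05. Deviations from the group means were weakly correlated between libraries with the same replicate number (0.0627, -0.135 and 0.129 for replicates 1, 2 and 3). These values cannot show whether such libraries were handled together, which is not stated. With the replicate block 0 genes and 0 members were called. At 60949593 reads or more per library, Ifi44 (44.3 to 161 normalized counts) is the member whose values depth limits most.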

Other observations

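Beyond the members, 93 further genes of the interferon pathways were tested, and 68 had a positive log2 fold change, with a median of 0.11 against -0.01 over all tested genes. At an unadjusted limma p under 0.05, 4 were higher and 3 lower in GC-treated cells, where 2.12% and 5.07% of all tested genes were, and none had an adjusted p below 0.62 in limma. Besides Ifng, the higher ones were Psme1 (0.32 ± 0.13) and Psme2 (0.38 ± 0.14), the subunits of the proteasome activator that interferon gamma induces, and Socs1 (0.47 ± 0.20), a feedback inhibitor of the receptor kinases. Psme2 had 38854, 49998 and 53414 normalized counts in GC-treated 1, 2 and 3, against 37513, 30639 and 41037 in vehicle-treated 1, 2 and 3, with GC-treated 3 highest, as for the immunoproteasome subunits. GC-treated 3 was also raised over the shortest group of all tested genes (median deviation 0.16). The lower ones were Slfn5 (-0.76 ± 0.17), Helz2 (-0.56 ± 0.16) and Irf4 (-0.52 ± 0.17), a factor induced by T cell receptor signals. Slfn5, a Schlafen family gene listed as type I-induced, had 327, 380 and 324 in GC-treated 1, 2 and 3, against 657, 533 and 565 in vehicle-treated 1, 2 and 3, so its groups did not overlap while most other type I-induced genes listed (38 of 49) were positive.

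Of the other cell type lists, the most abundant genes were Ccr2 for monocytes and macrophages (3 of 11 genes positive), Irf8 for dendritic cells (5 of 7 tested genes positive), Ighm for B cells (1 of 3), Klrk1 for NK cells (3 of 5) and Hba-a1 for erythroid cells (1 of 4). Activated CD8+ T cells express Ccr2, Irf8 and Klrk1 as well, and Bst2 is both a member and a dendritic cell marker. Cd163, a macrophage scavenger receptor gene named after its values were seen, had 105, 105 and 95.6 normalized counts in GC-treated 1, 2 and 3, against 340, 250 and 246 in vehicle-treated 1, 2 and 3 (log2 fold change -1.43 ± 0.24, adjusted p = 0.62 in limma and 0.0094 in DESeq2). It was 1 of the 2 genes that DESeq2 called. Clec9a was at 0 in 5 of 6 libraries.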
